A study of Mus musculus with 8 samples.

Results

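Neuronal microtubule and growth cone genes are the genes for tubulins, for the proteins that bind microtubules or tubulin, for collapsin response mediators, for membrane proteins of the growth cone, for kinesins of axonal transport and for the beta-thymosins that bind actin. The set held 40 genes, listed by name. A gene was represented by the array row that carried its symbol and no other, and by the row with the highest mean over the 8 arrays where it had several. By this rule 38 of the 40 genes were measured, among 65956 rows tested. Tuba1b and Map4 had only rows that carried several symbols and were not analysed here. Each array measured RNA from the whole spinal cord of a C57Bl/6J mouse embryo at E14.5 on an Affymetrix Mouse Transcriptome Array, with 4 embryos lacking the transcription factor NFIX (Nfix-/-) and 4 wild-type littermates (Nfix+/+). Embryos came from matings of heterozygous parents, and no agent was given to either genotype. Values are log2 signals, so a difference of 1 is a 2-fold change, and each difference is Nfix-/- minus wild-type. Over the whole table, 522 rows were higher in Nfix-/- and 829 were lower when the limma adjusted p had to be under 0.05 and the change larger than 1.5-fold. The study states nearly the same counts, of genes and not of rows, with the directions exchanged. It also gives fewer embryos of each genotype than the labels list. Why the directions differ was not tested.

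Microtubules are hollow polymers of alpha and beta tubulin, started by gamma tubulin, that fill the axon and serve as tracks for transport. At the tip of a growing axon, the growth cone, microtubules meet an actin network. Microtubule-associated proteins stabilise and space the polymers, stathmins bind free tubulin and favour disassembly, and collapsin response mediators carry guidance signals to the cytoskeleton. GAP43, BASP1 and the MARCKS proteins lie under the growth cone membrane, kinesins walk along microtubules with cargo, and beta-thymosins hold actin monomers in reserve. In the spinal cord at this age, newborn neurons are extending axons, and these genes are among the most active of young neurons. NFIX belongs to the nuclear factor I family, which binds the palindrome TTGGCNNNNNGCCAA and, more weakly, a single arm of it, TTGGC.

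The promoters of 4 of these genes are printed because 3 of them, Tmsb4x, Basp1 and Fez1, were the only genes that passed the test and had a promoter in the table used, while Tubb3 is the tubulin most often used to mark neurons. Each runs from 250 bases before to 50 bases after the annotated start, is written 5′ to 3′ on the gene's strand, and is taken from RefSeq for GRCm38.p6. Capitals mark the TTGGC arm on either strand. The windows are chrX:167209169-167209468 (minus strand) for Tmsb4x, chr15:25413715-25414014 (minus strand) for Basp1, chr9:36821641-36821940 (plus strand) for Fez1 and chr8:123411303-123411602 (plus strand) for Tubb3.
Tmsb4x: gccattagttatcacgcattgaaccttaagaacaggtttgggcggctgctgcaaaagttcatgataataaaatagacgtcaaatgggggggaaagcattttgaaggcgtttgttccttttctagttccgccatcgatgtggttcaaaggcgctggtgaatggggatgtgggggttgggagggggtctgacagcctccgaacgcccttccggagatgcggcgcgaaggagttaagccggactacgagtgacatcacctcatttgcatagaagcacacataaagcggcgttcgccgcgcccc
Basp1: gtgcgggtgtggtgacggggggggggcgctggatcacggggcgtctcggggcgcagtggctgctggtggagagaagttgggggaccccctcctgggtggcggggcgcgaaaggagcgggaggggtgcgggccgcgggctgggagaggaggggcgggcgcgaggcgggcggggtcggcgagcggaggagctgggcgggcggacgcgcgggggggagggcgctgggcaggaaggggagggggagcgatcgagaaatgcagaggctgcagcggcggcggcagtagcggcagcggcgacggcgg
Fez1: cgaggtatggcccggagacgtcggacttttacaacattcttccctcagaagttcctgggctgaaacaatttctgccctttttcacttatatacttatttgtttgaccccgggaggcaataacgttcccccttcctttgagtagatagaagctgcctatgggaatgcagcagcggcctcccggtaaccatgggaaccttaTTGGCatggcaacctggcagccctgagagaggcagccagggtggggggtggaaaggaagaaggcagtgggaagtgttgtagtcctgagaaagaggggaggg
Tubb3: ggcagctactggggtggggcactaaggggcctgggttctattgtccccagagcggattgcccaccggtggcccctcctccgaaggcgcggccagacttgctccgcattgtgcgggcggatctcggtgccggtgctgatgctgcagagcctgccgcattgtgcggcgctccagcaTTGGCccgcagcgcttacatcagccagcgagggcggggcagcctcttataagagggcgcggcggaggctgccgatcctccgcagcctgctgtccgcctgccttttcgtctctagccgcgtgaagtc
The printed Fez1 and Tubb3 windows each held 1 TTGGC, in both cases overlapping a CCAAT box on the other strand, and the Tmsb4x and Basp1 windows held none. The GC box GGGCGG, searched on both strands, occurred 4 times in Basp1, 2 times in Tubb3, 1 time in Tmsb4x and 0 times in the printed Fez1 window. Fez1 had 3 windows, with 1 TTGGC and 1 GGGCGG over all of them, and the window printed is the one that holds the TTGGC. Such windows were given for 23 of the 38 measured genes. The full palindrome was in 0 of the 23, against 0.0444% of the 27025 genes with a window. TTGGC was in 10 of 23 (43.5%, against 50.4% of all genes) and CCAAT in 10 of 23 (43.5%, against 41.1%). GGGCGG was in 17 of 23 (73.9%, against 38.2%) and TATAAA in 6 of 23 (26.1%, against 15.7%). These matches describe the letters in the windows and were not measured as binding sites.

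Nfix itself (chr8:84704712-84801238) was 8.90, 8.88, 8.83 and 8.81 on Nfix-/- replicates 1 to 4 and 9.36, 9.18, 9.25 and 9.19 on wild-type replicates 1 to 4, with no overlap (log2 difference -0.39, SE 0.0544, limma adjusted p = 0.0024). Wild-type replicate 2 stood apart from the other arrays: its score on the first principal component was 72.7, against -38.3 to 20.5, and its negative-control median was 4.88, against 4.33 to 4.6. Without it and Nfix-/- replicate 4, the array with the next highest negative-control median, 7 genes of the set passed instead of the 8 given below. A gene is called detected on an array where its signal exceeded 95 in 100 of the negative-control probes, and all 38 genes were detected on all 8 arrays. The Nfix row was also detected on all 8, so its signal in Nfix-/-, at a fold of 0.763, stayed above that level. The labels call the embryos biological replicates and do not give their litters or sexes. Since whole cords were measured, fewer cells of a type and less RNA per cell cannot be told apart.

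Every one of the 38 genes had a higher mean in Nfix-/- in the deposited values, although 23 of the differences were below 0 after cyclic loess and 18 after quantile normalization. The median difference was 0.11, a fold change of 1.08, and the range was 0.01 to 0.40, so that no gene reached 1.5-fold. By limma over all rows, 8 genes (21.1%) were higher at an adjusted p under 0.05 and 0 were lower. They were Tmsb4x, Stmn4, Stmn1, Tubb6, Gap43, Basp1, Mapt and Fez1. Of all rows 11.5% were called higher and 10.5% lower, and of the 6277 rows that were as bright as a gene of the set 14.6% were called higher and 0.255% lower. A further 9 genes had adjusted p-values from 0.05 to 0.1. In 21 genes (55.3%) the 4 Nfix-/- arrays all lay above the 4 wild-type arrays, against 16.1% of all rows and 29.6% of equally bright rows. In the other 17 the groups overlapped, and no gene had all Nfix-/- arrays below, against 12% of all rows. The share of equally bright rows with all Nfix-/- arrays below was not computed.

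Rows of like brightness moved in the same direction. For each gene, the rows outside the set nearest to it in mean level were taken, the same number for every gene, and their median difference ran from 0.07 to 0.14. Of all equally bright rows 86.3% had a difference above 0. Less this shift, the median of the 38 genes was -0.00 (range -0.10 to 0.32), with 19 genes above their equally bright rows and 19 below. Cyclic loess, which removes differences between arrays that depend on level, gave a median of -0.02, with 15 genes above 0 and 23 below. After it 4 genes were higher (10.5%) and 0 lower, against 10% of all rows and 2.72% of equally bright rows called higher, and 10.3% and 1.78% called lower. The 4 genes were Tmsb4x, Stmn4, Stmn1 and Tubb6, all of them among the 8 called in the deposited values. What produced the shift shared by bright rows was not tested.

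**Figure D1:**
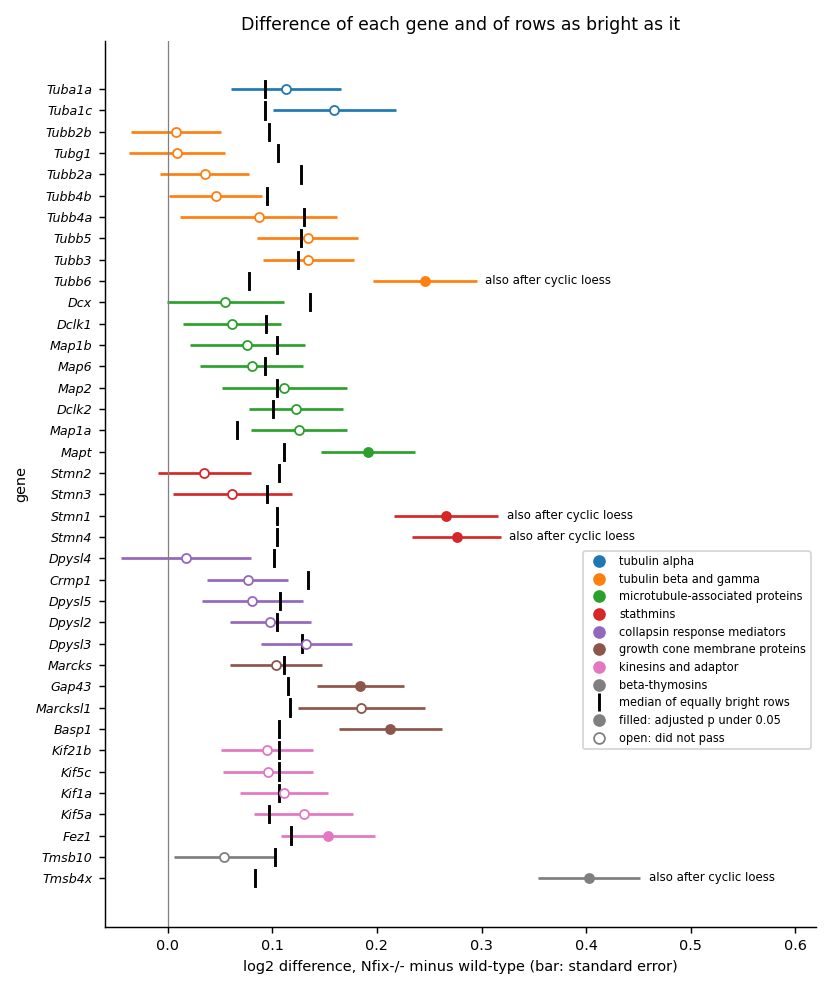
Log2 difference (Nfix-/- minus wild-type, n = 4 each, bars are limma standard errors) of each of the 38 genes, coloured by role, with filled points for an adjusted p under 0.05 and a black tick at the median difference of equally bright rows. All points lie above 0 and most lie near their tick, while Tmsb4x, Stmn4, Stmn1 and Tubb6 lie well to the right of theirs.

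**Figure D2:**
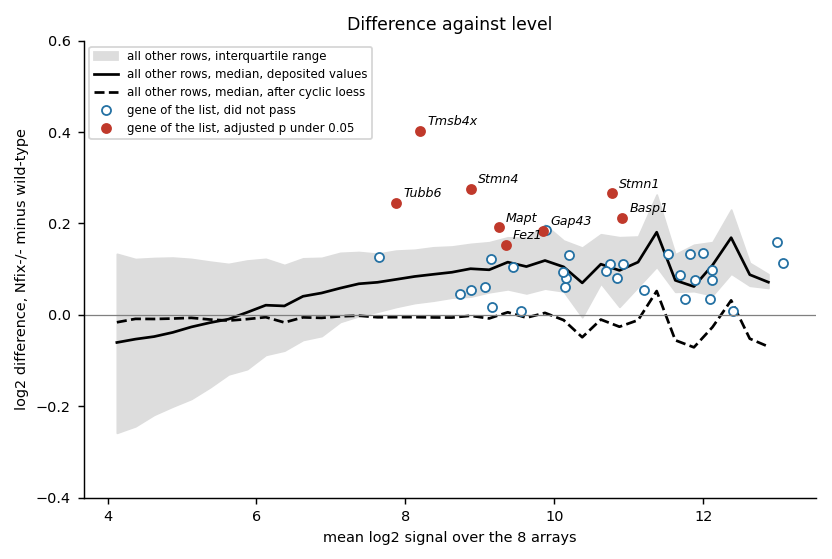
Log2 difference (Nfix-/- minus wild-type) against the mean log2 signal over 8 arrays for the 38 genes, over the median and interquartile range of all rows in bins of level. The median rises from -0.06 at a level of 4.1 to 0.10 at 8.9 and has no steady rise above that. Most of the genes lie at these higher levels and scatter around the median, and the 4 genes called after cyclic loess are the farthest above it.

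The shift could be followed array by array. The median over the 38 genes, each taken against its own wild-type mean, was 0.10, 0.12, 0.07 and 0.14 on Nfix-/- replicates 1 to 4. Over 9629 bright rows the same median was 0.09, 0.11, 0.07 and 0.12, so replicate 3 was lowest and replicate 4 highest in both. On the wild-type arrays the genes' medians lay between -0.02 and 0.01. Of the 38 genes, 34, 37, 30 and 35 were above their wild-type mean on Nfix-/- replicates 1 to 4, and 10 to 27 on the wild-type arrays.

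**Figure D3:**
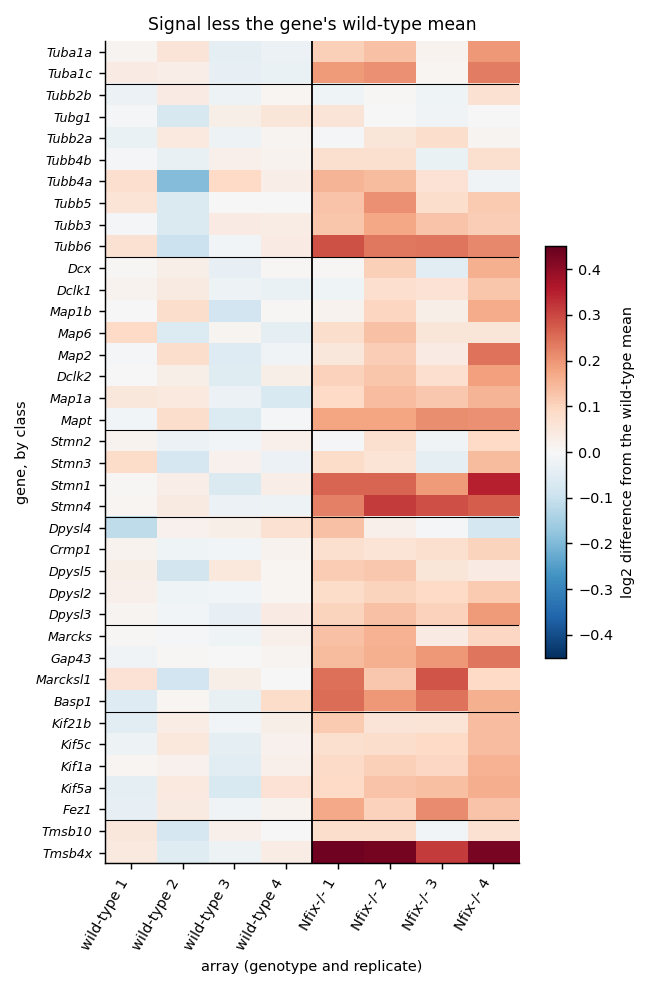
Deviation of each gene from its wild-type mean (log2) on each of the 8 arrays, shown as colour, with the genes grouped by role. Medians are not drawn. On the Nfix-/- arrays they lie between 0.07 and 0.14 for the genes and between 0.07 and 0.12 for bright rows.

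Among the tubulins, Tubb6 was the 1 isotype of 10 measured that passed. Tubb6 (chr18:67390731-67402749) encodes a beta tubulin made in many tissues outside the nervous system. It was 8.04, 7.99, 7.99 and 7.97 on the Nfix-/- arrays and 7.82, 7.65, 7.74 and 7.79 on the wild-type arrays, without overlap. The means were 8.0 ± 0.0292 and 7.75 ± 0.0731 (SD, n = 4), a difference of 0.25 (SE 0.0498, fold 1.19, limma adjusted p = 0.0106). Less the shift of equally bright rows it was 0.17, and after cyclic loess it was 0.16 (adjusted p = 0.0422).

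Tubb3 (chr8:123411553-123422015), the neuronal class III beta tubulin, did not pass. Its Nfix-/- values of 12.06, 12.10, 12.06 and 12.04 all lay above the wild-type values of 11.92, 11.86, 11.97 and 11.96. The means, 12.06 ± 0.0274 and 11.93 ± 0.0480 (SD, n = 4), differed by 0.13 (SE 0.0439, limma adjusted p = 0.0598). That was 0.01 above its equally bright rows, and after cyclic loess the difference was -0.00 (adjusted p = 0.998).

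Tubb2a and Tubb2b, the neighbouring genes for the class II beta tubulins that dominate in brain, and Tubg1, the gamma tubulin that starts new microtubules, lay farthest below their equally bright rows, by 0.09, 0.09 and 0.10. Tubb2b (chr13:34127008-34130354) was 12.37, 12.40, 12.37 and 12.46 in Nfix-/- and 12.37, 12.43, 12.37 and 12.40 in wild-type, a difference of 0.01 (SE 0.0431, limma adjusted p = 0.915). Tubb2a (chr13:34074278-34078008) was 11.74, 11.80, 11.82 and 11.76 against 11.71, 11.79, 11.72 and 11.75, a difference of 0.04 (SE 0.0428, adjusted p = 0.599). Tubg1 (chr11:101119904-101126423) was 9.61, 9.55, 9.54 and 9.55 against 9.55, 9.48, 9.58 and 9.61, a difference of 0.01 (SE 0.0461, adjusted p = 0.913). In all 3 the groups overlapped. After cyclic loess the lowest of their adjusted p-values was that of Tubb2b, 0.0785, at a difference of -0.13.

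Of the other beta tubulins, the broadly made Tubb5 differed by 0.13 (adjusted p = 0.0825), Tubb4a by 0.09 (adjusted p = 0.443) and Tubb4b by 0.05 (adjusted p = 0.497). Neither of the 2 alpha tubulins measured passed. Tuba1a, the main alpha tubulin of young neurons, ran from 13.03 to 13.21 in Nfix-/- and from 12.97 to 13.08 in wild-type, a difference of 0.11 (SE 0.0523, limma adjusted p = 0.156). The row used for Tuba1c differed by 0.16 (SE 0.0588, adjusted p = 0.0867). Its identifier places it on chromosome 13, while the gene is annotated on chromosome 15, and the other row named Tuba1c, on chromosome 15, differed by 0.07 (SE 0.0471, adjusted p = 0.351). Tubulin genes are close copies of each other, and how far their probes share RNA was not tested.

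Of 8 microtubule-associated proteins measured, Mapt alone passed. Mapt (chr11:104229409-104332090) encodes tau, which binds and spaces axonal microtubules. It read 9.34, 9.34, 9.37 and 9.36 in Nfix-/- and 9.15, 9.24, 9.10 and 9.15 in wild-type. The Nfix-/- arrays were all above the wild-type arrays and spread less, with means of 9.35 ± 0.0171 and 9.16 ± 0.0585 (SD, n = 4) and a difference of 0.19 (SE 0.0452, fold 1.14, limma adjusted p = 0.0192). It lay 0.08 above equally bright rows and gave an adjusted p of 0.218 after cyclic loess. The call was also lost without Nfix-/- replicate 3 and without wild-type replicate 1, 3 or 4, each left out alone.

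The other 7 genes of this role differed by 0.06 to 0.13. Map1a, a scaffold protein of neuronal microtubules, differed by 0.13 (adjusted p = 0.085), and Dclk2, a doublecortin-like kinase, by 0.12 (adjusted p = 0.0842). Map2, the dendritic relative of tau, differed by 0.11 (adjusted p = 0.215) and Map1b, a protein of growing axons, by 0.08 (adjusted p = 0.358). Dcx, the X-linked gene for doublecortin of migrating neurons, differed by 0.06 (adjusted p = 0.52) and its relative Dclk1 by 0.06 (adjusted p = 0.383). Map6, which protects microtubules from cold, differed by 0.08 (adjusted p = 0.276) in its brighter row and by -0.18 (SE 0.0838, adjusted p = 0.151) in its other row. The median of the 8 genes was 0.10, and -0.00 less the shift of equally bright rows.

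The stathmins fell into a pair that passed and a pair that did not. Stmn4 (chr14:66344210-66361680), a neuronal, membrane-bound stathmin, was 8.97, 9.06, 9.03 and 9.02 in Nfix-/- and 8.75, 8.78, 8.72 and 8.72 in wild-type. The means of 9.02 ± 0.0358 and 8.74 ± 0.0312 (SD, n = 4) differed by 0.28 (SE 0.0422, fold 1.21, limma adjusted p = 0.00346). The gap between the groups was wider than the range within either.

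Stmn1 (chr4:134468320-134473843), the cytosolic founding member, made in dividing progenitors as well as in young neurons, was 10.90, 10.90, 10.83 and 10.99 against 10.64, 10.67, 10.57 and 10.66. Its means of 10.90 ± 0.0646 and 10.64 ± 0.0452 (SD, n = 4) differed by 0.27 (SE 0.0499, fold 1.2, limma adjusted p = 0.0078), again without overlap. Both genes passed after cyclic loess, Stmn4 with a difference of 0.17 (adjusted p = 0.0187) and Stmn1 with 0.14 (adjusted p = 0.0348).

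Stmn2 and Stmn3, the other neuronal stathmins, overlapped between genotypes. Stmn2 ran from 12.06 to 12.17 in Nfix-/- and from 12.05 to 12.10 in wild-type, a difference of 0.04 (SE 0.0444, limma adjusted p = 0.615). Stmn3 ran from 9.0 to 9.18 and from 8.96 to 9.12, a difference of 0.06 (SE 0.0567, adjusted p = 0.476).

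None of the 5 collapsin response mediators passed. These cytosolic proteins act downstream of semaphorins, and CRMP2, the product of Dpysl2, also binds tubulin dimers. Dpysl3 differed by 0.13 (SE 0.0434, limma adjusted p = 0.061), with Nfix-/- arrays from 11.56 to 11.65 above wild-type arrays from 11.42 to 11.50. Dpysl2 differed by 0.10 (adjusted p = 0.103), Crmp1 and Dpysl5 each by 0.08 (adjusted p = 0.19 and 0.262) and Dpysl4 by 0.02 (adjusted p = 0.87). Their median was 0.08, which was 0.03 below equally bright rows.

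Of the 4 growth cone membrane proteins, Gap43 and Basp1 passed. Gap43 (chr16:42248552-42340651), the classical marker of growing axons, was 9.89, 9.91, 9.95 and 9.99 in Nfix-/- and 9.74, 9.76, 9.75 and 9.77 in wild-type. The means of 9.94 ± 0.0434 and 9.75 ± 0.0118 (SD, n = 4) differed by 0.18 (SE 0.0417, fold 1.14, limma adjusted p = 0.0164). The 4 wild-type arrays were nearly alike, and every Nfix-/- array lay above them.

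Basp1 (chr15:25363277-25413764), an abundant protein of the inner growth cone membrane, was 11.06, 11.00, 11.05 and 10.97 against 10.75, 10.82, 10.77 and 10.89. The groups were apart, with means of 11.02 ± 0.0429 and 10.81 ± 0.0623 (SD, n = 4) and a difference of 0.21 (SE 0.0490, fold 1.16, limma adjusted p = 0.0173). Neither gene passed after cyclic loess, where Gap43 differed by 0.07 (adjusted p = 0.27) and Basp1 by 0.09 (adjusted p = 0.378).

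Marcksl1 (chr4:129513581-129515981), a relative of MARCKS that binds actin and membranes, was 10.05, 9.92, 10.08 and 9.89 in Nfix-/- and 9.86, 9.71, 9.82 and 9.80 in wild-type. The groups did not overlap, but the arrays of Nfix-/- spread more widely (9.98 ± 0.0945 against 9.80 ± 0.0631, SD, n = 4), and the difference of 0.19 did not pass (SE 0.0606, limma adjusted p = 0.0608). Marcks differed by 0.10 (adjusted p = 0.125). The median of the 4 genes was 0.18, which was 0.07 above equally bright rows.

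Among the 4 kinesins and Fez1, the adaptor that links cargo to kinesin-1, only Fez1 passed. Fez1 (chr9:36821398-36878926) was 9.45, 9.38, 9.48 and 9.40 in Nfix-/- and 9.23, 9.31, 9.26 and 9.29 in wild-type. All Nfix-/- arrays were above, with means of 9.43 ± 0.0481 and 9.27 ± 0.0344 (SD, n = 4) and a difference of 0.15 (SE 0.0448, fold 1.11, limma adjusted p = 0.0414). The call was lost when any 1 array but wild-type replicate 2 was left out, and the difference after cyclic loess was 0.04 (adjusted p = 0.595). Kif5a and Kif5c, heavy chains of kinesin-1, differed by 0.13 (adjusted p = 0.0852) and 0.10 (adjusted p = 0.143). Kif1a, the motor of synaptic vesicle precursors, differed by 0.11 (adjusted p = 0.0908) and Kif21b, a motor that also alters microtubule growth, by 0.09 (adjusted p = 0.157).

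Tmsb4x had the highest difference of the 38 genes. Tmsb4x (chrX:167207093-167213479) encodes thymosin beta 4, the main protein that holds actin monomers, made by neurons and also abundantly by blood, vessel and connective tissue cells. It was 8.43, 8.42, 8.31 and 8.42 in Nfix-/- and 8.04, 7.94, 7.97 and 8.03 in wild-type. The lowest Nfix-/- array, replicate 3, was well above the highest wild-type array. The means of 8.40 ± 0.0583 and 7.99 ± 0.0473 (SD, n = 4) differed by 0.40 (SE 0.0488, fold 1.32, limma adjusted p = 0.00141). Less the shift of equally bright rows it was 0.32, a fold of 1.25, and after cyclic loess 0.31 (adjusted p = 0.0027).

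Its relative Tmsb10, encoding thymosin beta 10, was 8.94, 8.94, 8.85 and 8.93 against 8.91, 8.78, 8.88 and 8.86. The groups overlapped and the difference was 0.05 (SE 0.0473, limma adjusted p = 0.453). Because Tmsb4x is on the X chromosome, it was set beside Xist, the RNA of the inactive X chromosome of females. Xist was between 4.17 and 4.33 on Nfix-/- replicates 1 and 2 and wild-type replicate 3, and between 10.40 and 11.12 on the other 5 arrays. Tmsb4x was 8.43 and 8.42 on the Nfix-/- arrays with low Xist and 8.31 and 8.42 on those with high Xist, and the wild-type array with low Xist, at 7.97, lay within the wild-type range of 7.94 to 8.04.

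**Figure D4:**
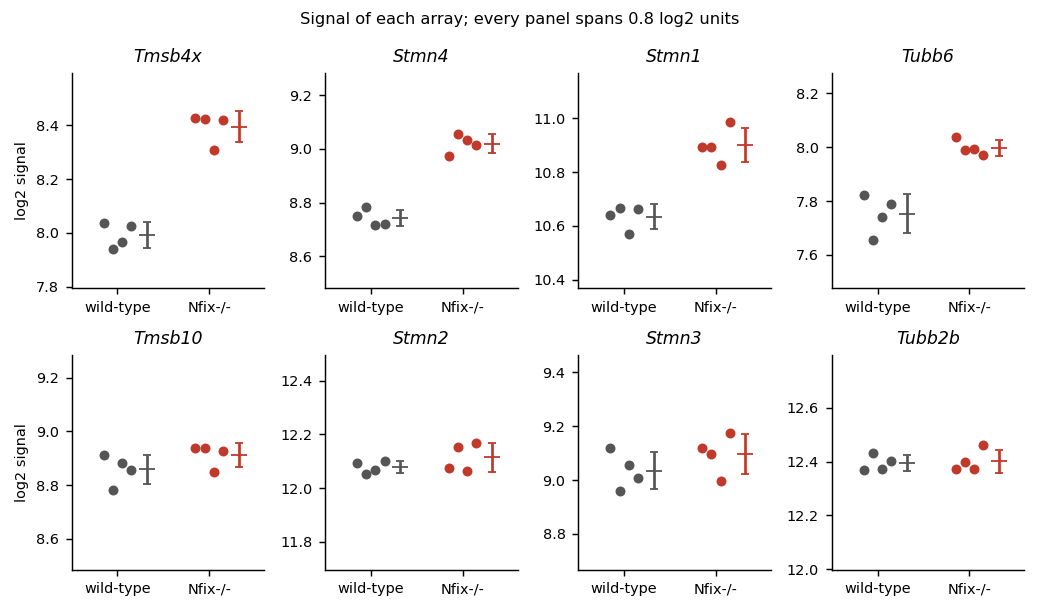
Log2 signal on each of the 8 arrays (points) with the mean and SD of each genotype beside them, for genes that passed and for relatives that did not. The Nfix-/- and wild-type points of Tmsb4x, Stmn4, Stmn1 and Tubb6 are apart, and those of Tmsb10, Stmn2, Stmn3 and Tubb2b overlap.

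A ratio of 2 relatives within an array is free of any shift that both share. Ratios were formed for 45 pairs of relatives, and in 11 of them the genotypes did not overlap, each with an exact permutation p of 0.0286 (two-sided), the smallest that 4 against 4 allows. By chance 2.86% of pairs would not overlap, but pairs that share a gene are not independent. Most of the 11 set a gene that passed over a relative that did not. The share among other pairs of rows was not computed. Adjusted over the 45 pairs the lowest p was 0.117, and the lowest after cyclic loess was 0.0918. For any pair to pass, 26 of the 45 would have had to be without overlap, so these adjusted values say little about a single pair. The log2 ratio of Tmsb4x to Tmsb10 ran from -0.54 to -0.51 in Nfix-/- and from -0.91 to -0.83 in wild-type, a change of 0.35 (SE 0.0194).

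Of 6 pairs of stathmins 4 did not overlap. The ratio of Stmn4 to Stmn2 changed by 0.24 (SE 0.0342), Stmn4 to Stmn3 by 0.21 (SE 0.0631), Stmn1 to Stmn2 by 0.23 (SE 0.0300) and Stmn1 to Stmn3 by 0.20 (SE 0.0496). The ratio of Stmn4 to Stmn1 changed by 0.01. Of 21 pairs of beta tubulins 4 did not overlap, among them Tubb6 over Tubb2b (0.24, SE 0.0590), Tubb2a (0.21, SE 0.0581) and Tubb4b (0.20, SE 0.0413). The fourth, Tubb3 over Tubb4b, changed by 0.09, but after cyclic loess by 0.05 (exact permutation p = 0.429). Of 10 pairs of collapsin response mediators 2 did not overlap, with changes of 0.02 and 0.06.

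The calls depended on how array levels were matched. Tmsb4x, Stmn4 and Stmn1 passed in all 17 alternatives run on the whole set, and Tubb6 missed only under quantile normalization. After cyclic loess the hold was weaker. With each of the 8 arrays left out in turn, Tmsb4x still passed 8 times, at adjusted p-values from 0.00551 to 0.011 and differences from 0.30 to 0.34. Stmn4 passed 4 times (adjusted p from 0.0215 to 0.0554). Stmn1 (0.0524 to 0.0895) and Tubb6 (0.0501 to 0.1) passed 0 times, while their differences stayed between 0.13 and 0.18.

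**Figure D5:**
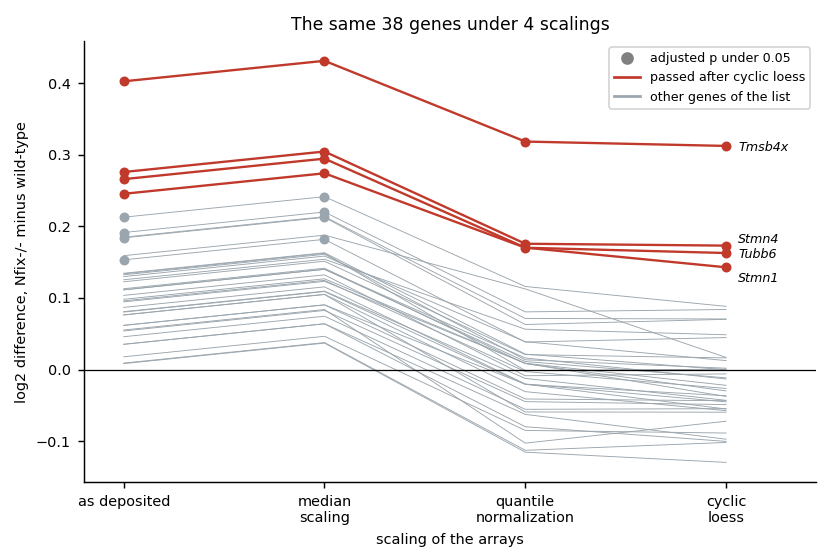
Log2 difference of the 38 genes under each scaling of the arrays, 1 line per gene, with filled points for an adjusted p under 0.05. The lines move down together under quantile normalization and cyclic loess, where 18 and 23 of them end below 0, and Tmsb4x stays highest throughout.

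Beyond the set, 91 further genes of the same machinery were listed in 6 groups, and 80 were measured. Of these 11 were higher and 4 lower in the deposited values, and 2 higher and 6 lower after cyclic loess. The higher calls were 13.8% of the 80 genes, near the 11.5% of all rows and the 14.6% of rows as bright as the set. The lower calls were 5.0%, against 10.5% of all rows and 0.255% of rows as bright as the set. After cyclic loess the shares were 2.5% and 7.5%, against 10% and 10.3% of all rows. For rows as bright as the set they were 2.72% and 1.78%. Of the 80 genes, 65 were detected on 4 or more arrays, so some were dimmer than the set. Of the 11 higher genes, 9 did not pass after cyclic loess, where they differed by 0.01 to 0.12 (adjusted p from 0.0755 to 0.953). The other 2, Nde1 and Tuba4a, passed in both and were detected on 0 arrays. The median difference of the 80 genes was 0.09, or -0.01 less the shift of equally bright rows. Among 13 genes of tubulin folding and modification, Ttl, the ligase that restores tyrosine to alpha tubulin, rose by 0.22 (SE 0.0411, limma adjusted p = 0.00841) and Vash2, part of the enzyme that removes it, by 0.14 (SE 0.0404, adjusted p = 0.043). Among 13 genes of end binding and severing, Camsap2, which binds minus ends, rose by 0.18 (SE 0.0498, adjusted p = 0.0338) and Mapre1, which tracks plus ends, by 0.14 (SE 0.0391, adjusted p = 0.0395). Mapre2 of the same list, detected on 8 arrays, had all Nfix-/- arrays below wild-type but did not pass (-0.08, limma adjusted p = 0.218). After cyclic loess Mapre2 was lower (-0.19, adjusted p = 0.017).

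Of 11 other microtubule-associated proteins none passed by limma. Of 17 other motors 3 rose: Nde1 by 0.24 (adjusted p = 0.0135) and Pafah1b1 by 0.19 (adjusted p = 0.0414), both partners of dynein, and Klc1, a kinesin light chain, by 0.12 (adjusted p = 0.0482). Of 19 actin and signalling genes of the growth cone, Ablim1 rose by 0.17 (adjusted p = 0.0209) and Cap1 by 0.20 (adjusted p = 0.0466). Pfn2, the neuronal profilin that promotes actin assembly, was the 1 gene of these 19 called lower. Its Nfix-/- arrays, from 9.19 to 9.26, lay below wild-type arrays from 9.39 to 9.57. Pfn2 fell by 0.24 (SE 0.0507, limma adjusted p = 0.0118), and its difference after cyclic loess was -0.35 (adjusted p = 0.00267).

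Of 7 other tubulins, Tubal3, Tubb1, a blood platelet isotype, and Tube1, a centriolar tubulin, fell by 0.58, 0.36 and 0.27 (adjusted p = 0.00173, 0.00741 and 0.00568). Tuba4a and Tubg2 rose by 0.24 and 0.15 (adjusted p = 0.02 and 0.0324). Of these 5 only Tubg2 was detected on any array.

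A few markers of cell types differed between genotypes as well. Of 8 neuronal markers outside the set, Nefl and Nefm, the light and medium neurofilament chains, each rose by 0.23 (limma adjusted p = 0.00638 and 0.0155), and 6 did not pass. The mean over the 8 was 10.47 to 10.52 in Nfix-/- and 10.30 to 10.38 in wild-type, their median difference was 0.13, or 0.03 above equally bright rows, and 0 passed after cyclic loess. Of 9 markers of neural progenitors 1 was lower, Hes5 (difference -0.46, limma adjusted p = 0.00322), and 0 were higher. The means over the 9 overlapped, at 8.62 to 8.78 against 8.65 to 8.75. Of 5 markers of motor neurons 1 was lower, Mnx1 (-0.30, adjusted p = 0.031, detected on 0 arrays), and 0 were higher. Of 4 markers of the astrocyte lineage and 3 of oligodendrocyte precursors none passed by limma. After cyclic loess Olig2, an oligodendrocyte precursor marker, was lower (-0.34, adjusted p = 0.0236).

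Markers of vessels, immune cells and tissue around the cord were also examined. Of 7 markers of meninges and fibroblasts 4 were higher (mean 7.98 to 8.10 against 7.79 to 7.91), of 5 of endothelium 2 (8.24 to 8.36 against 8.10 to 8.22), of 8 of sensory ganglion neurons 1 (6.95 to 7.05 against 6.52 to 6.93) and of 5 of microglia and macrophages 1 (6.67 to 6.75 against 6.52 to 6.70). After cyclic loess 3, 2, 2 and 0 of them were higher. Of 6 markers of skeletal muscle 2 were higher, Myl1 by 0.72 (limma adjusted p = 0.0466) and Tnnt1 by 0.25 (adjusted p = 0.0446), and 1 after cyclic loess. The muscle median was 0.30, or 0.26 above equally bright rows, with means of 6.36 to 6.95 against 6.10 to 6.54. The ganglion neuron median was 0.27, or 0.26 above equally bright rows, with 7 markers above 0 and 1 below. Its markers detected on 4 or more arrays, Avil, P2rx3, Scn10a and Prph, differed by 0.37, 0.38, 0.35 and 0.19. None of them passed (limma adjusted p = 0.0665, 0.078, 0.13 and 0.227), and their groups overlapped. Of 3 markers of Schwann cells none passed by limma, with differences of 0.06 to 0.18 and means of 7.16 to 7.43 against 6.97 to 7.31. Of the first 4 of these lists 4, 3, 4 and 1 markers were detected on 4 or more arrays, of muscle 1 and of Schwann cells 2. The markers called higher in ganglion neurons (Scn11a, and Mrgprd after cyclic loess), microglia (C1qc) and muscle were detected on 0 arrays, as were Emcn of endothelium and Prrx1 of fibroblasts. Tmsb4x and Tubb6 are made by several of these cell types and Gap43 and Stmn4 by ganglion neurons. The part of such cells in the differences of the set was not tested.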

How the data were processed

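Whole spinal cords of 4 Nfix-/- and 4 wild-type embryos at E14.5 were each measured on 1 array. According to the methods, the authors used the Affymetrix Expression Console to normalize all samples jointly, with SST-RMA summaries for each gene, and genome version mm10. The values they deposited are on the log2 scale. Of 72688 rows, 6732 control rows were left out of the tests. Rows were named from the platform annotation, in which 30638 had 1 symbol, and positions came from RefSeq for GRCm38.p6.

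The 65956 remaining rows were fitted in R 4.3.3 by lmFit and eBayes of limma 3.58.1, with Benjamini-Hochberg adjustment over all of them, with no filter and no further scaling, and again after cyclic loess. Fitting was tested on simulated data. Arrays give no read depth, and their number limits the precision. Full values were given for Nfix, the 10 genes of the set with the lowest p, the 3 lowest and 3 highest relative to equally bright rows, and all that passed after cyclic loess. Of each wider list up to 3 genes that passed were named, those with the lowest p, and further genes were named after their values were seen. The members and all lists were chosen with earlier results of these data known. Alternatives were quantile normalization, median scaling, cyclic loess, bright rows only, a prior with a trend, array weights, an unmoderated one-way unpaired test, a replicate block, other choices of row and leaving out arrays.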

Additional observations from a re-analysis of the deposited data

Results flagged for a closer look

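Among 78 groups of 4 arrays (38 genes and Nfix, both genotypes), 3 had a single array far from the other 3, measured as its gap to the nearest array over the whole range. Chance gives about 1 in 20 groups. All 3 were Nfix-/- replicate 3, on the low side. Tubb4b was 8.68 there, against 8.78 on the other Nfix-/- arrays. Tmsb4x was 8.31, against 8.42 to 8.43. Tmsb10 was 8.85, against 8.93 to 8.94. On this array the median of the 38 genes was also nearest to wild-type, 0.07 above it, as was that of bright rows. Without it Tmsb4x still passed.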

How the results depend on the processing

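Against 8 genes of the set higher in the deposited values, 3 were higher under quantile normalization, 4 under cyclic loess, 17 when only bright rows were fitted, 17 by an unmoderated one-way unpaired test (the kind the methods name) after Benjamini-Hochberg adjustment (0 of them past 1.5-fold) and 4 with a replicate block, and 6 to 8 with each array left out in turn. Of the 80 further cytoskeletal genes, 11 were higher, against 0 under quantile normalization, 2 under cyclic loess, 18 for bright rows only, 21 by that unmoderated test, 21 under a prior with a trend, 18 with array weights, 2 with the replicate block and 3 to 8 with an array left out. Of the 4 that were lower, 1 was lower when only bright rows were fitted. The median over the set was 0.11, against 0.0084 under quantile normalization, -0.0177 under cyclic loess and 0.10 to 0.12 with an array left out. After cyclic loess 4 genes were higher, against 1 with the replicate block and 1 to 2 with an array left out. Without wild-type replicate 2 and Nfix-/- replicate 4 together, chosen after seeing the data, 7 genes of the set and 7 further genes were higher, and 2 of the set after cyclic loess. The median less the shift of equally bright rows stayed between -0.02 and 0.01 with an array left out.

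Single genes changed direction under cyclic loess (Tuba1a -0.0299, Tubb2a -0.0974, Tubb2b -0.130, Tubb3 -0.000294, Tubb4a -0.0452, Tubb4b -0.0548, Tubg1 -0.102, Map1b -0.0597, Map2 -0.0117, Map6 -0.0367, Dcx -0.0723, Dclk1 -0.0552, Stmn2 -0.101, Stmn3 -0.0437, Dpysl2 -0.0377, Dpysl4 -0.0888, Dpysl5 -0.0431, Crmp1 -0.0575, Marcks -0.00616, Kif5c -0.0265, Kif1a -0.0133, Kif21b -0.0221 and Tmsb10 -0.0490) and under quantile normalization (Tubb2a -0.0628, Tubb2b -0.116, Tubb4a -0.0202, Tubb4b -0.0557, Tubb5 -0.00140, Tubg1 -0.113, Map1b -0.0594, Map6 -0.0208, Dcx -0.103, Dclk1 -0.0206, Stmn2 -0.0800, Stmn3 -0.0412, Dpysl4 -0.0852, Dpysl5 -0.0125, Crmp1 -0.0310, Marcks -0.00870, Kif5c -0.00283 and Tmsb10 -0.0449). Tubg1 was -0.0119 with array weights and -0.0117 without the pair of arrays named above, and Map6 was -0.0516 as the mean of its rows. With an array left out, Tubg1 ran from -0.0156 to 0.0271, Dpysl4 from -0.0206 to 0.0571 and Tubb2b from -0.0121 to 0.0209. Causes were not tested.

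Replicate numbers are shared by the genotypes, but same-numbered arrays deviated together with correlations of 0.47, -0.15, 0.04 and -0.08. No Nfix-/- array correlated best with the wild-type array of its own number, so the numbers were not taken as pairs. With 4 arrays a genotype, a gene that did not pass is not shown to be unchanged.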
